A study of Mus musculus with 6 samples.

Results

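The miR-30 family is a group of microRNAs made from 6 hairpin genes in the mouse, and its level in healthy liver is described here arm by arm. The members were the 10 miR-30 names of the deposited table that cover the 5p and 3p arms of miR-30a, b, c, d and e, chosen by name, and all 10 were found among the 1907 distinct miRNAs of the table. Small RNA libraries were prepared from liver of C57BL/6N mice aged 12 weeks, in normal health and fed chow: 3 females and 3 males, described as littermates. No mouse carried a genetic change or received a treatment, and the comparison is between the sexes. The study is about SAB, which is the product of Sh3bp5 and sits in the outer mitochondrial membrane, and about acute liver injury that differs by sex; these libraries show the liver without injury.

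A microRNA is cut from a hairpin transcript as a short duplex, and usually 1 strand of the duplex, the 5p or the 3p arm, is kept in an Argonaute protein while the other is degraded. The kept strand finds its messenger RNAs mainly through the seed, bases 2 to 8 from its 5′ end. The 5p arms of the miR-30 family share a seed, so they are expected to find overlapping sets of targets, and the family is known for holding back Snai1 and other genes of the epithelial to mesenchymal transition. In the liver, miR-30c is known for repressing Mttp, the transfer protein that loads lipid onto lipoproteins, and miR-30a has been tied to bile duct formation in zebrafish. The 3p arms have other seeds and are less studied.

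Sequences were matched by name to RefSeq (GRCm38.p6, the assembly of mm10) for 6 of the 10 members; miR-30b-5p, miR-30b-3p, miR-30d-5p and miR-30d-3p are given by name. The 5p arms are shown because the seed, in capitals, is what joins them, together with miR-384-5p, a miRNA of the X chromosome with the same seed.
miR-30a-5p: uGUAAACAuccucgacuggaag
miR-30e-5p: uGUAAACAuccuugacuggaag
miR-30c-5p: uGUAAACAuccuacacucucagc
miR-384-5p: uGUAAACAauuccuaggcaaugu
Of the 1679 mature names searched in the RefSeq table, these 4 had the seed GUAAACA. The search had no sequence of miR-30b-5p or miR-30d-5p, so neither could be counted. With positions counted from 1 at the 5′ end, miR-30a-5p and miR-30e-5p differ by the single substitution C13U, outside the seed. Over their first 22 bases, miR-30a-5p and miR-30c-5p differ by 5 substitutions, C13A, G14C, G18C, G19U and A20C. Reads that are short or carry an error can therefore be counted under a near-identical member, and no source used here says how such reads were handled.

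The 3p arms are shown for the opposite reason, that they fall under different seeds, again in capitals.
miR-30a-3p: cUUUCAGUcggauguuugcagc
miR-30e-3p: cUUUCAGUcggauguuuacagc
miR-30c-2-3p: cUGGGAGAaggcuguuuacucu
miR-30c-1-3p: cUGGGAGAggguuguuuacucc
The search had no sequence of miR-30b-3p or miR-30d-3p, so their seeds are not given and the counts in this paragraph cannot include them. The seed UUUCAGU of miR-30a-3p and miR-30e-3p was found in 2 names of that table, which differ by the single substitution G18A. The seed UGGGAGA was found in 3 names, miR-30c-1-3p, miR-30c-2-3p and miR-6958-5p. The 3p arm lies opposite the 5p arm in the hairpin, and the reverse complement of the 5p seed, UGUUUAC, was read at position 13 in miR-30e-3p, miR-30c-2-3p and miR-30c-1-3p but not in miR-30a-3p. Searched in the mature strand alone, these 7 letters stood in 3 of the 709 3p names of the RefSeq table (0.423%).

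The hairpins of miR-30a and miR-30e show how the arms are placed, with the 5p arm and then the 3p arm in capitals.
Mir30a: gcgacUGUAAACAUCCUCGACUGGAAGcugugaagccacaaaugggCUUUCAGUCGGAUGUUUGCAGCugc
Mir30e: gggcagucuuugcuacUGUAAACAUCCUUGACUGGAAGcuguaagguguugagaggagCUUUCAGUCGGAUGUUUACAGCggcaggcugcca
Mir30a lies at chr1:23272269-23272339 on the plus strand of mm10, with no other annotated gene at its mature arms in GENCODE M21. Mir30c-2 lies 19.4 kb downstream of it at chr1:23291701-23291784, where its 3p arm is inside an exon of the long non-coding RNA Gm27028. Mir30e (chr4:120772606-120772697) and Mir30c-1 (chr4:120769534-120769622) lie 2.98 kb apart on the minus strand in an intron of Nfyc, which encodes a subunit of the CCAAT-binding factor NF-Y. Mir30d (chr15:68341208-68341289) and Mir30b (chr15:68337415-68337510) lie 3.7 kb apart on the minus strand; the arms of Mir30d are inside an exon of the long non-coding RNA Gm20732, and those of Mir30b overlap no other annotated gene. The mature miR-30c-5p is the same from Mir30c-1 and Mir30c-2, so its counts cannot be assigned to either locus.

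Library totals ran from 3285249 to 16444674 counts, the largest in male replicate 3. Male replicate 2 had the lowest TMM factor, 0.917, where females had 1.03 to 1.07 and the other males 0.958 and 0.983. The tissue label fitted its defining marker: miR-122-5p, the dominant hepatocyte miRNA, took 32.5 to 35.5% of the counts of each library. Levels below are CPM, counts per 1000000 on TMM-adjusted library sizes, in which 1 count stood for 0.0635 to 0.285 CPM. In whole liver, fewer cells of a type and less RNA per cell cannot be told apart, and the ease with which a given sequence is ligated and copied affects its level relative to other sequences.

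The miR-30 family made up several percent of all liver miRNA counts, most of it 5p arms. The 10 members together took 3.67, 3.96 and 3.41% of the counts in females 1 to 3 and 3.38, 2.89 and 3.17% in males 1 to 3, with 95% Wilson intervals of at most 0.0204 percentage points to either side, which cover counting error only. The 5p arms took 3.29 ± 0.253% in females and 2.77 ± 0.273% in males (SD, n = 3 each), and the 3p arms 0.387 ± 0.0261% and 0.376 ± 0.0332%. As shares of the raw totals the females lay above the males, although female 3 and male 1 were nearly equal. On TMM-adjusted totals the groups overlapped: the 10 members summed to 34881, 38452 and 31929 CPM in females and to 34373, 31463 and 33076 CPM in males.

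The most abundant member was miR-30a-5p, which is known for repressing the autophagy gene Becn1. It stood at 14795, 16579 and 12710 CPM in females and at 14014, 11989 and 12920 CPM in males, and ranked 14 among the 370 tested miRNAs. The sexes overlapped, with a female library highest and a male library lowest.

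Next was miR-30d-5p, known for repressing the glycosyltransferase gene Galnt7, at 8029, 8012 and 7194 CPM in females and 7644, 8644 and 7166 CPM in males. Its 6 libraries lay within 1.21-fold of each other, as did those of miR-30e-3p, the closest among the 10 members. Then came miR-30e-5p, at 5825, 6899 and 5880 CPM in females and 6484, 4856 and 5415 CPM in males. Here too the groups overlapped, with male replicate 2 lowest.

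The remaining 5p members were lower. The level of miR-30c-5p was 1806, 2251 and 2119 CPM in females and 2109, 1290 and 2365 CPM in males. The least abundant 5p arm was miR-30b-5p, at 646, 775 and 682 CPM in females and 680, 428 and 1031 CPM in males; with miR-30c it is known for repressing the Notch ligand gene Dll4. In both, male replicate 2 was the lowest and male replicate 3 the highest of the 6 libraries.

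Among the 5p arms the order was a, d, e, c, b in each library. Neighbours in this order had ranges over the 6 libraries that did not overlap, with ratios of the means of 1.78 (a over d), 1.32 (d over e) and 2.96 (e over c). Of all 5p counts of the members, miR-30a-5p held 44.1 to 48.0%, miR-30d-5p 23.2 to 31.8%, miR-30e-5p 17.8 to 21.0%, miR-30c-5p 4.74 to 8.19% and miR-30b-5p 1.57 to 3.57%. The share of miR-30d-5p was 31.8% in male replicate 2 and at most 25.8% in the other libraries.

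The 3p arms of miR-30a and miR-30e were as abundant as some of the 5p arms. The level of miR-30e-3p was 1750, 1832 and 1600 CPM in females and 1619, 1901 and 1936 CPM in males. That of miR-30a-3p was 1676, 1738 and 1449 CPM in females and 1489, 1914 and 1895 CPM in males. The ranges of miR-30c-5p, miR-30e-3p and miR-30a-3p overlapped, so their order is not beyond the spread between libraries; miR-30c-5p was above miR-30e-3p in 5 of 6 libraries, and miR-30e-3p above miR-30a-3p in 5 of 6. Although miR-30a-5p was 2.16 to 2.54 times miR-30e-5p, the ratio of miR-30a-3p to miR-30e-3p was 0.905 to 1.01. This pair of 3p arms, which share a seed, held 89.6 to 91.7% of the 3p counts of the members.

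The other 3p arms were minor. From the same 2 hairpin clusters as miR-30a and miR-30d, miR-30c-2-3p stood at 235 to 371 CPM, miR-30d-3p at 46.2 to 57.0 CPM and miR-30b-3p at 11.1 to 16.5 CPM, the last from 47 to 232 counts per library. The ranges of these 3 did not overlap with each other or with miR-30b-5p above them.

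Of the miR-30c loci, miR-30c-2-3p had 12.1 to 19.6 times the counts of miR-30c-1-3p, which is no member of the list and stood at 17.0 to 23.5 CPM. The 2 hairpins give the same 5p arm and different 3p arms, so this ratio is the one place where the table separates them. The 5p seed relative outside the family was barely counted: miR-384-5p had 0, 0 and 1 counts in females and 1, 2 and 2 in males. Where it had 0 counts, in females 1 and 2, a level of up to 0.495 and 0.83 CPM would be allowed. The miR-30f entry, on the strand opposite Mir30e, had at most 4.1 estimated counts in a library.

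**Figure D1:**
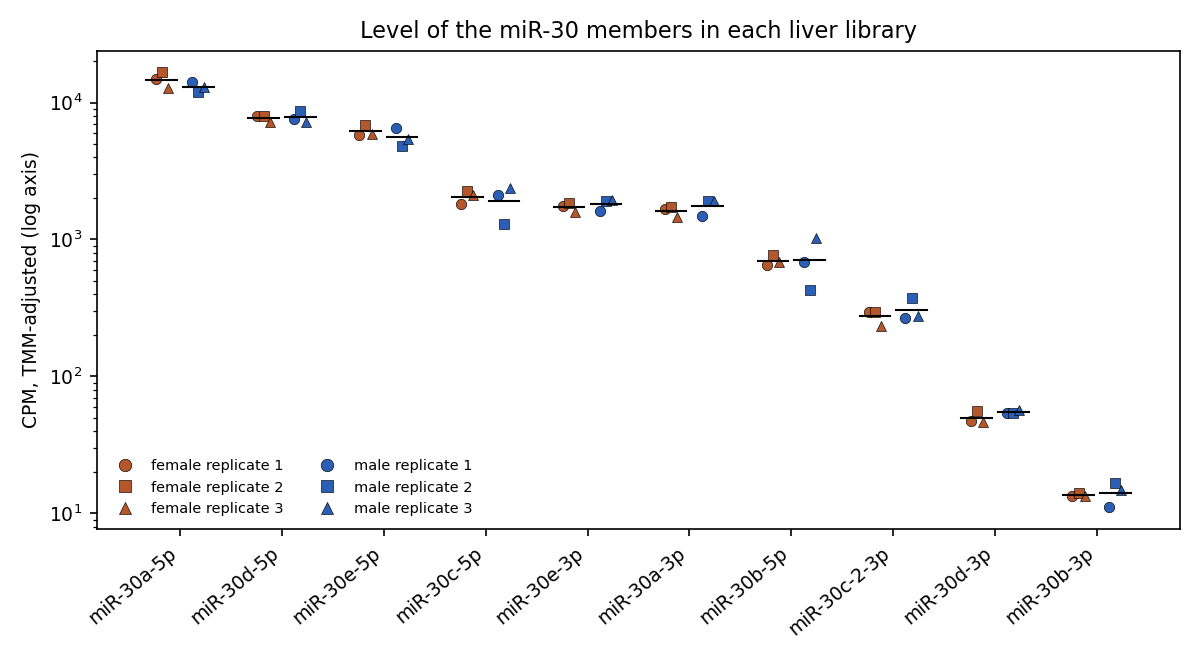
Level of the 10 miR-30 members in CPM (TMM-adjusted, log axis), with 1 point per library, females in orange and males in blue, and bars at the mean of each sex. The members are ordered by mean level, from miR-30a-5p at 11989 to 16579 CPM to miR-30b-3p at 11.1 to 16.5 CPM, and the sexes overlap for each of them.

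For none of the 10 members was a difference between the sexes found beyond the spread between animals. Of the 370 miRNAs tested, 25 passed an adjusted p of 0.05 in edgeR's quasi-likelihood test (6.76%), and 0 of the 10 members did; 0 also had an unadjusted p of 0.05 or below, where 18.1% of all tested miRNAs had, and 0 passed in the DESeq2 Wald test or limma-voom. With 6.76% of all tested miRNAs called, 0 calls among 10 members is close to the background. For no member did the CPM ranges of the sexes separate, where they did for 21.6% of all tested miRNAs. The members' adjusted p-values ran from 0.426 to 0.963 (edgeR, Benjamini-Hochberg). Their median log2 fold change, female over male, was -0.04 beside -0.01 over all tested miRNAs, with 3 members positive and 7 negative, and 48.1% of all tested miRNAs positive. Nothing in the labels gives a batch, and any effect tied to the order of the sample titles, males and then females, cannot be told apart from sex.

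The intervals show how large a difference these 6 animals leave room for under TMM scaling. For miR-30a-5p, at 14695 ± 1936 CPM in females and 12974 ± 1014 in males (SD, n = 3 each), the log2 fold change was 0.18 (SE 0.11, 95% interval -0.05 to 0.41, adjusted p = 0.426, edgeR). This interval runs from 0.964-fold to 1.33-fold. With no TMM factor the log2 fold change of miR-30a-5p was 0.32 (SE 0.11, adjusted p = 0.114, edgeR). For miR-30d-5p, at 7745 ± 477 and 7818 ± 755 CPM, the log2 fold change was -0.01 (95% interval -0.23 to 0.20), the narrowest interval of the 10. For miR-30e-5p, at 6201 ± 605 and 5585 ± 827 CPM, it was 0.15 (-0.11 to 0.42).

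For the lipoprotein-linked miR-30c-5p, at 2058 ± 229 CPM in females and 1921 ± 562 in males, the log2 fold change was 0.10 (95% interval -0.32 to 0.52). For miR-30b-5p, at 701 ± 66.4 and 713 ± 303 CPM, it was -0.03, with the widest interval of the 10, -0.57 to 0.51. On the fold scale that interval spans 0.675 to 1.43, so a 2-fold difference lay outside the interval of each member.

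All 5 of the 3p members had a negative value, none past the test. The log2 fold changes were -0.07 for miR-30e-3p (95% interval -0.34 to 0.19), -0.12 for miR-30a-3p (-0.42 to 0.17) and -0.14 for miR-30c-2-3p (-0.53 to 0.24). Those of the low miR-30d-3p and miR-30b-3p were -0.15 and -0.05. The 5p arms had a median of 0.10 and the 3p arms a median of -0.12. These signs depend on the scaling: with no TMM factor 8 of the 10 members were positive, with a median of 0.10 beside 0.13 over all tested miRNAs, and with upper-quartile factors the medians were -0.13 and -0.10; no member passed with either.

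**Figure D2:**
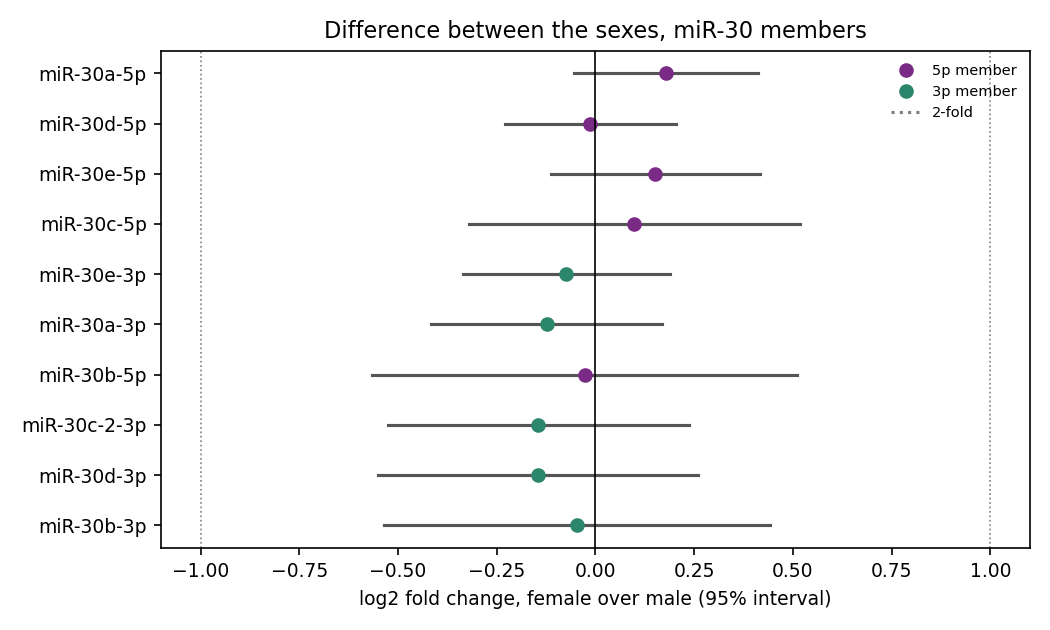
Log2 fold change, female over male, of the 10 miR-30 members (points, 5p in purple and 3p in green) with 95% intervals from the edgeR fit, and dotted lines at 2-fold in either direction. Each interval holds 0 and lies inside the 2-fold lines; the widest, of miR-30b-5p, runs from -0.57 to 0.51.

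The arms of 1 hairpin sit in the same library, so their ratio needs no scaling between libraries. In all 5 hairpin names the 5p arm was the more abundant, by amounts that differed widely. The 5p count was 3.31 times the 3p count for miR-30e, 6.36 times for miR-30c (against both 3p arms summed), 8.17 times for miR-30a, 49.3 times for miR-30b and 148 times for miR-30d, as geometric means over the 6 libraries. Of the 104 hairpin names with both arms tested, 59 had more 5p than 3p. The ratio of miR-30e exceeded that of 51.9% of the 104, that of miR-30c 54.8% and that of miR-30a 57.7%. Those of miR-30b and miR-30d exceeded 74.0% and 80.8%. The 8 names compared next were picked by name and do not stand for the 104. In a list of 8 other liver hairpin names the ratio was 106 for miR-192, below that of miR-30d, 366 for miR-26b and 1299 for miR-26a, and for miR-29c, miR-29b, miR-148a, miR-101a and miR-29a the 3p arm exceeded the 5p arm 350, 494, 1815, 2762 and 6501 times.

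By library, the ratio for miR-30a was 8.83, 9.54 and 8.77 in females and 9.41, 6.26 and 6.82 in males. For miR-30e it was 3.33, 3.77 and 3.67 in females and 4.01, 2.55 and 2.80 in males. In both, male replicates 2 and 3 lay below all females while male replicate 1 lay within or above them.

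For miR-30b the ratio was 48.0, 54.4 and 50.4 in females and 61.0, 25.7 and 69.8 in males. For miR-30c it was 5.81, 7.02 and 8.33 in females and 7.30, 3.31 and 8.07 in males. In these 2, male replicate 2 alone was low. For miR-30d the ratio was 170, 142 and 155 in females and 141, 160 and 126 in males, with male replicate 3 lowest.

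No hairpin's arm ratio passed the test between the sexes. With limma on the log2 ratios, 0 of 104 hairpin names had an adjusted p of 0.05 or below (0%), and 5 (4.81%) had an unadjusted p of that size, none of them of the miR-30 family. The sexes overlapped for all 5 miR-30 ratios, where they did not for 9.62% of the 104. The log2 ratio differed, female minus male, by 0.29 for miR-30a (SE 0.22, 95% interval -0.22 to 0.80), 0.23 for miR-30e (-0.30 to 0.76), 0.27 for miR-30c (-0.55 to 1.08), 0.14 for miR-30d (-0.33 to 0.60) and 0.09 for miR-30b (-0.76 to 0.93). Adjusted p was 0.934 to 0.971 for these 5 (limma), and the exact two-sided permutation test gave p = 0.3 to 1, where 3 animals against 3 can give no less than 0.1. Without male replicate 2 the values of miR-30b and miR-30c were -0.36 and -0.14. That library also had the lowest median log2 ratio over all 104 hairpin names, 1.06 where the others had 1.32 to 1.70; the part of this shift in the miR-30 ratios was not tested.

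**Figure D3:**
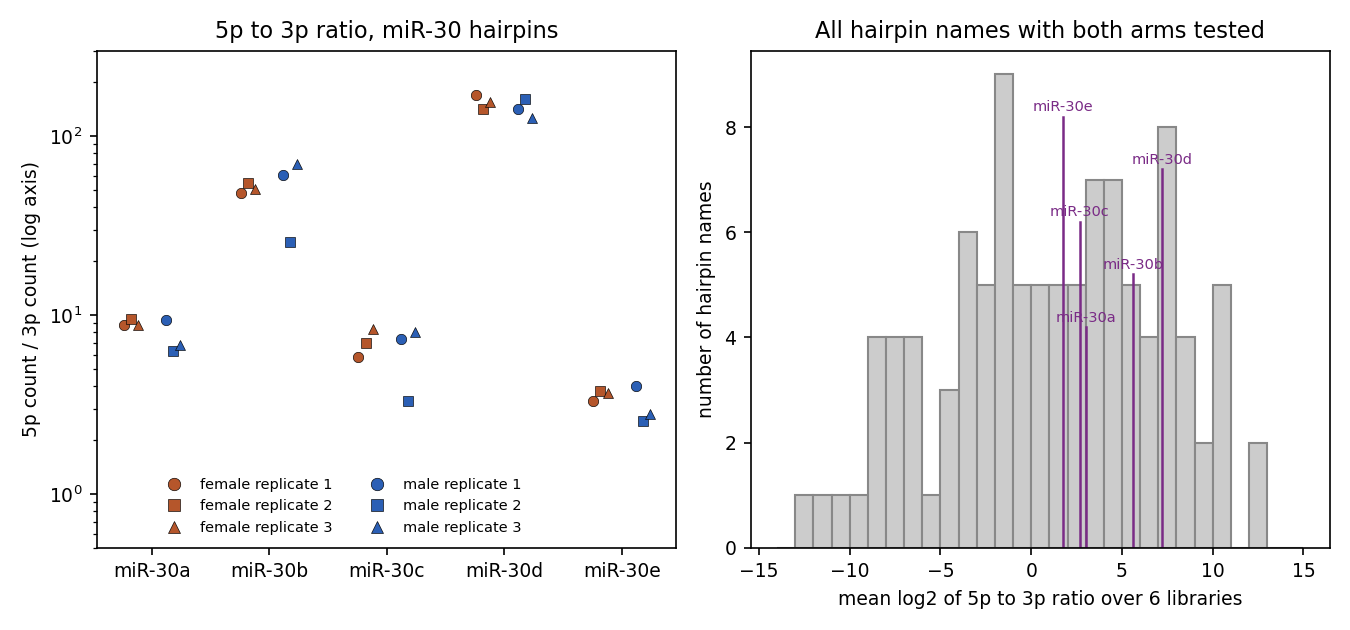
Left, ratio of 5p to 3p counts (log axis) for the 5 miR-30 hairpin names, 1 point per library, with 2.55 to 4.01 for miR-30e at the bottom and 126 to 170 for miR-30d at the top. Right, number of hairpin names by mean log2 ratio over the 6 libraries for all 104 names with both arms tested, with the miR-30 names marked by vertical lines whose heights only separate the labels; all 5 lie to the right of 0.

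In female replicates 2 and 3 the members lay largely on 1 side of the female mean. Female replicate 2 was above it for all 10 (1.03 to 1.13 times), and female replicate 3 below it for all but miR-30c-5p. Female replicate 1 was mixed, from 0.88 times for miR-30c-5p to 1.07 times for miR-30c-2-3p. How all tested miRNAs stood in these libraries was not counted. In males the members diverged. In females the SD of log2 CPM was 0.04 to 0.19 for the 10 members, beside a median of 0.20 over all tested miRNAs. In males it was 0.63 for miR-30b-5p and 0.46 for miR-30c-5p but 0.11 for miR-30a-5p and 0.14 for miR-30d-5p, beside a median of 0.26. The spread of miR-30b-5p in males exceeded that of 92.7% of the tested miRNAs, and that of miR-30c-5p 82.2%.

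This spread came from male replicates 2 and 3, which stood on opposite sides of the male mean. Male replicate 2 had 0.60 times the male mean of miR-30b-5p and 0.67 times that of miR-30c-5p, and male replicate 3 had 1.45 and 1.23 times. For miR-30d-5p, from the same cluster as miR-30b-5p, the same libraries had 1.11 and 0.92 times the mean. The ratio of miR-30d-5p to miR-30b-5p was therefore 20.2 in male replicate 2 and 6.95 in male replicate 3, against 10.3 to 12.4 in the other 4 libraries. The ratio of miR-30c-5p to miR-30b-5p, which come from different chromosomes, was 2.29 in male replicate 3 and 2.80 to 3.11 in the other libraries. The sequence of miR-30b-5p was not at hand, and whether reads were shared between it and miR-30c-5p was not tested. The values of miR-30b-5p rest on these libraries: its log2 fold change was -0.29 without male replicate 2 and 0.33 without male replicate 3, and that of miR-30c-5p was -0.12 and 0.27, with adjusted p between 0.337 and 0.626 (edgeR). Male replicate 3 was also the deepest library, with 16444674 counts, and male replicate 2 held 4617647. The part of depth in this spread was not tested. After thinning all libraries to equal totals 0 of the 10 members passed between the sexes, the same as before thinning, which says nothing of the spread.

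**Figure D4:**
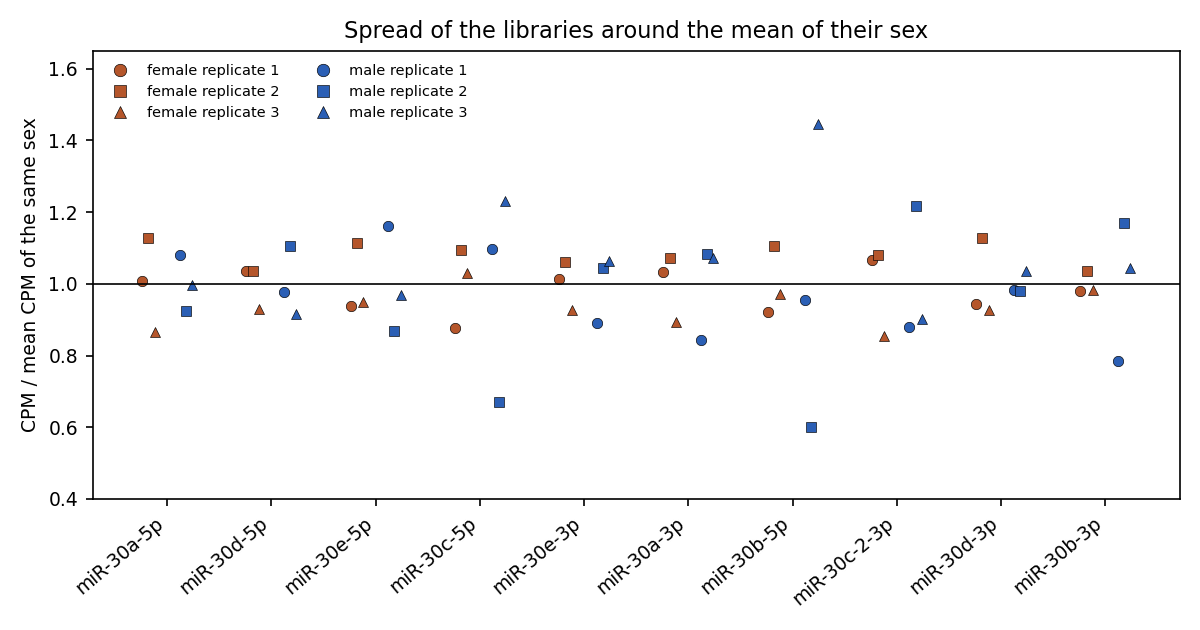
CPM of each library divided by the mean CPM of its own sex, for the 10 miR-30 members, with 1 point per library and a line at 1. The widest spread is that of miR-30b-5p in males, from 0.60 in male replicate 2 to 1.45 in male replicate 3, while the female libraries lie between 0.85 and 1.13 for all members.

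Outside the family, the miRNAs whose profile was most like the mean log2 CPM of the 5p members, among 106 with at least 100 CPM, were miR-130a-3p, miR-27a-3p and miR-340-5p. Pearson's r over the 6 libraries was 0.94, 0.91 and 0.90, and Spearman's rho 0.71, 0.89 and 0.83, given as a description of the closest of many. In all 3, as in the mean of the 5p members, male replicate 2 was the lowest library: miR-130a-3p stood at 535 CPM there and at 759 to 851 CPM elsewhere. None of the 3 passed between the sexes. The mean does not stand for each 5p member: miR-30d-5p was highest in male replicate 2, at 8644 CPM. Its Pearson's r was -0.78 with miR-30b-5p and -0.81 with miR-30c-5p.

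Of 9 other miRNAs that act on lipoprotein and cholesterol genes, a role shared with miR-30c-5p, 1 was higher in females, the myeloid miR-223-3p (log2 fold change 0.62, adjusted p = 0.0467, edgeR), and 0 were lower, with a median of -0.09; 6.76% of all tested miRNAs passed, so a single call among 9 is close to the background. The most abundant of them were miR-122-5p (-0.21, adjusted p = 0.053), miR-148a-3p (-0.18) and miR-27b-3p (0.16). The members of the miR-30 family are made in many cell types, so levels of cell markers are given beside their values. Of 6 hepatocyte markers 1 was higher, miR-802-5p, and of 5 leukocyte markers 1, miR-223-3p; none of 4 erythroid, 2 endothelial, 5 stromal and stellate, 5 biliary and epithelial or 2 tested muscle markers passed, beside 6.76% of all tested miRNAs. All 5 leukocyte markers had a positive log2 fold change (median 0.35), as had all 4 erythroid (0.18) and 2 of 2 tested muscle markers (0.29). Of the 2 endothelial markers 1 was positive (median -0.02). None was among the 5 stromal and 5 biliary markers (medians -0.21 and -0.22). The median over all tested miRNAs was -0.01. The summed leukocyte markers ran from 4038 to 4592 CPM in females and stood at 4452, 2898 and 3141 CPM in males 1 to 3. The hepatocyte sum was 395785 to 398896 CPM in females and 421092, 466032 and 450281 CPM in males. Most of it was miR-122-5p, at a mean of 339858 CPM, so the sum says little of the other hepatocyte markers. Of the 6 hepatocyte markers, 4 had a positive log2 fold change (median 0.095). The stromal sum was 8916 to 11436 CPM in females against 12108 to 12795 CPM in males. None of the listed markers was at 0 in all libraries. Male replicate 2, which had the lowest miR-30b-5p and miR-30c-5p, thus also had the lowest leukocyte sum and the highest hepatocyte and stromal sums. Male replicate 3, with the highest miR-30b-5p, had the next lowest leukocyte sum and the next highest hepatocyte and stromal sums (stromal 12262 CPM). The leukocyte sum was mostly miR-142a-3p (mean 2835 CPM) and the stromal sum mostly miR-143-3p (mean 8724 CPM). The part of these sums in the miR-30 values was not tested.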

How the data were processed

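Small RNA of 6 mouse livers was sequenced from libraries of a miRNA kit by Qiagen, per the labels' protocols. The deposited table gives 1 estimated count per mature miRNA and library, without normalisation; Partek, Bowtie and mm10 are named in the submitters' processing notes. No source used here states how reads were trimmed, how multiply matching reads were treated or whether molecular identifiers were collapsed. Of 2045 rows, 138 exact repeats (among them 1 of miR-30c-5p) were left out. Counts were rounded to whole numbers.

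Samples were grouped by the sex in the labels; replicate numbers follow accession order, libraries were treated as separate animals, and no library pair was a duplicate (chi-square per degree of freedom of at least 30.5). The sexes were compared with edgeR 4.0.16 in R 4.3.3 (quasi-likelihood test, robust, TMM, filterByExpr with counts of at least 10 and totals of at least 15) on the whole table, with Benjamini-Hochberg adjustment over 370 miRNAs. Standard errors and 95% intervals derive from the F statistic and its degrees of freedom. Arm ratios, log2 of 5p over 3p counts with a pseudocount of 0.5, were compared with limma 3.58.1 over 104 hairpin names; where 1 arm is made from several loci, the opposite arms were summed. Both tests were also run on simulated counts with a common dispersion for all miRNAs, which is simpler than these data, and no result above rests on that run. Alternatives were DESeq2 1.42.0, limma-voom, other scalings and filters, thinning and leaving out each library. Named miRNAs were the members, their seed relatives, the 3 closest profiles, and of the lists the most abundant or those past the test. The members and lists were chosen with earlier results of these data known.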

Additional observations from a re-analysis of the deposited data

How the results depend on the processing

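No miR-30 member and no miR-30 arm ratio passed the threshold in any fit run. With no TMM factor, and again without female replicate 3, 1 member had an unadjusted p of 0.05 or below (edgeR). It was miR-30a-5p both times, with log2 fold changes of 0.32 and 0.28. The members' log2 fold changes kept their direction in 73 of 80 values on all libraries and in 53 of 60 with a library left out. With no TMM factor, which moved the median of all tested miRNAs from -0.01 to 0.13, the sign changed to 0.019 for miR-30a-3p, 0.10 for miR-30b-5p, 0.096 for miR-30b-3p, 0.13 for miR-30d-5p and 0.068 for miR-30e-3p. In limma-voom miR-30d-5p stood at 0.010, and after thinning miR-30b-3p stood at 0.11 and the arm ratio of miR-30b at -0.050; the cause of these 3 changes was not tested. Leaving out 1 library at a time moved miR-30a-5p between 0.077 and 0.28, miR-30e-5p between 0.058 and 0.25, miR-30a-3p between -0.25 and -0.044, miR-30e-3p between -0.17 and -0.017, miR-30d-3p between -0.25 and -0.093, and the arm ratios of miR-30a between 0.17 and 0.47, of miR-30e between 0.099 and 0.42 and of miR-30d between 0.049 and 0.23, with no change of sign. It gave -0.29 to 0.33 for miR-30b-5p, -0.12 to 0.27 for miR-30c-5p, -0.070 to 0.069 for miR-30d-5p, -0.21 to 0.066 for miR-30b-3p and -0.24 to 0.024 for miR-30c-2-3p, and for the arm ratios -0.36 to 0.36 for miR-30b and -0.14 to 0.51 for miR-30c. The count of 25 called miRNAs became 16 with a mean count of at least 50, where fewer miRNAs were tested, and 9 to 32 with a library left out: female replicate 2 left out gave 9, female replicate 3 gave 10 and male replicate 3 gave 12. The calls split into 12 higher and 13 lower with TMM, 13 and 7 with no TMM factor, and 7 and 19 with upper-quartile factors. With miR-122-5p left out of the library total, the mean share of the members rose by construction from 3.41 to 5.16%, that of the 5p arms from 3.03 to 4.58% and that of the 3p arms from 0.382 to 0.577%. Mean levels over all libraries moved by less than 1 SD with either other scaling. This was nearly fixed in advance, because the factors raise some libraries and lower others and leave such a mean almost in place. No paired analysis was possible because the replicate numbers follow accession order and pair no animals. Depth limits miR-30b-3p most, with 47 counts in the shallowest library.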
